A study of Mus musculus with 16 samples.

Results

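TRAJ43 and TRAJ50 are joining (J) segments of the T cell receptor alpha locus, and the alpha (TRA) chains that carry either were followed here in T cells from mouse liver tumours. Members were taken by rule as the high-confidence productive TRA contigs with either J segment in barcodes called cells, counting every productive TRA chain of a cell. They were found in 370 of 4935 cells with a TRA chain, of which 269 had TRAJ43, 255 had TRAJ50 and 154 had both. Both segments were picked because their share of cells was higher at day 14 than at day 5, so that difference is described below and not tested.

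C57BL/6 mice bore liver tumours grown from injected Hepa1-6 cells, an established hepatoma line of the mouse. The KO groups were CD4creMatr3fl/fl, in which Cre recombinase driven by the Cd4 promoter acts on floxed alleles of Matr3 (matrin 3, an RNA-binding protein of the nucleus), and the control (CON) groups were CD4creMatr3WT/WT. Cre is thus present in every group, and this promoter is active while T cells mature in the thymus, before CD4 and CD8 cells part. There were 2 receptor libraries each of KO day 14, CON day 14, KO day 5 and CON day 5, and the series' 8 RNA libraries were not analysed here. The labels do not say that libraries are separate mice, so p-values measure only how far these libraries spread, and part of that may be technical. Receptor contigs do not tell CD4 from CD8 cells and do not measure Matr3, so neither the cell type nor the deletion was checked.

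Libraries held 474 to 1404 cells, of which 388 to 1236 had a TRA chain, with a median of 3 to 5 UMIs (unique molecular identifiers, a count of captured transcripts) per TRA chain. Cells with TRAV11 joined to TRAJ18, the alpha chain of invariant natural killer T (iNKT) cells, numbered 20, 34, 42 and 23 in the day 14 libraries and 126, 121, 139 and 162 in the day 5 libraries. They enter the denominator of every share per cell.

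An alpha chain forms when a variable (V) segment is joined to a J segment, and the junction, with bases trimmed and added at random, encodes CDR3, the loop that lies over the peptide. Joining starts between the V segments nearest the J cluster and the J segments nearest the V cluster and can be repeated outward, and both chromosomes can rearrange, so a T cell can carry a pair of productive alpha chains. The beta (TRB) chain is made earlier and is mostly limited to a single productive chain per cell. Cells with the same beta and alpha nucleotides are therefore taken as descendants of the same cell, a clone.

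On build GRCm38 TRAJ43 lies at chr14:54174742-54174798 and TRAJ50 at chr14:54167590-54167652. Counted from the V side, TRAJ50 is J segment 12 and TRAJ43 J segment 19 of 60 in RefSeq. The ends of the chains are shown because they are how the segments are recognised. Lower case marks the last CDR3 bases common to every distinct chain of the segment, and capitals mark framework 4, the stretch after CDR3, which had 1 version in all 269 TRAJ43 and 1 in all 255 TRAJ50 contigs.
TRAJ43: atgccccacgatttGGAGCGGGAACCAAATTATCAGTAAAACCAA
TRAJ50: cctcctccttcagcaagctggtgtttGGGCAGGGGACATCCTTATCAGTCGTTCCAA

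The sequences that carry the main observation come from the largest clone of the KO day 14 replicate 2 library and the largest clone of the CON day 14 replicate 2 library, and from 1 further CON cell. Their beta CDR3s are TRBV13-1 joined to TRBJ1-1 and read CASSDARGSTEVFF in all 3. Capitals mark the positions at which the listed nucleotides differ.
KO clone beta: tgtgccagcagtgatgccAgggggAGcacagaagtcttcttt
CON clone beta: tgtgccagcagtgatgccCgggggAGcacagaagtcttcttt
CON single cell beta: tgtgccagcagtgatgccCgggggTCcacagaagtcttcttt

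Their TRAJ43 alpha CDR3s are joined to TRAV6-6 (chr14:53516929-53517366) and read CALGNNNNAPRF in all 3. Capitals again mark the differing position.
KO clone alpha: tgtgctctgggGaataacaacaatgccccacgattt
CON clone alpha: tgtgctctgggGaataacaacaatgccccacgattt
CON single cell alpha: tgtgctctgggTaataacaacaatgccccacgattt

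The TRAJ50 chains of the same 2 clones differ in V segment, length and bases. The KO chain is TRAV13-3 (deposited as TRAV13N-3, chr14:53337122-53337639) and reads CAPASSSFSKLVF, and the CON chain is TRAV7-5 (deposited as TRAV7D-5, chr14:52835861-52836387) with a CDR3 of 15 residues. Capitals mark the bases before the shared end.
KO clone TRAJ50: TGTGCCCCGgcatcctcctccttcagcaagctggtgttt
CON clone TRAJ50: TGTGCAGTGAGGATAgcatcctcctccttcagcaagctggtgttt

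TRAJ43 was found in 16 of 502 (3.19%) and 69 of 586 (11.8%) TRA cells of the KO day 14 libraries and in 26 of 1236 (2.10%) and 127 of 723 (17.6%) of the CON day 14 libraries. At day 5 it was found in 6 of 422 (1.42%) and 9 of 388 (2.32%) TRA cells of the KO libraries and in 8 of 463 (1.73%) and 8 of 615 (1.30%) of the CON libraries. The replicate 2 libraries of both genotypes stood apart at day 14. Their exact (Clopper-Pearson) 95% intervals, 9.28% to 14.7% in KO and 14.9% to 20.5% in CON, lay above those of the other 6 libraries, while the intervals of KO and CON replicate 1 at day 14 (1.83% to 5.12% and 1.38% to 3.07%) overlapped those of all 4 day 5 libraries. Intervals cover counting error only.

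TRAJ50 had the same split in a sharper form. It was found in 3 (0.598%) and 87 (14.8%) TRA cells of the KO day 14 libraries and in 5 (0.405%) and 138 (19.1%) of the CON day 14 libraries. At day 5 it was found in 5 (1.18%) and 4 (1.03%) cells of the KO libraries and in 3 (0.648%) and 10 (1.63%) of the CON libraries. The replicate 1 libraries of day 14 gave the lowest values of all 8, with intervals that overlapped those of day 5. The mean over 4 libraries (± SD, n = 4) was 8.73% ± 9.66 at day 14, with 1.12% ± 0.405 at day 5. For TRAJ43 it was 8.66% ± 7.35 at day 14, with 1.69% ± 0.455 at day 5. With iNKT-type cells left out, the TRAJ43 means were 9.03% at day 14 and 2.41% at day 5. Those of TRAJ50 were then 9.13% at day 14 and 1.44% at day 5. In another count only the TRA chain with the most UMIs of each cell was kept, with ties ranked by contig name. The difference between the days was then 2.69 points for TRAJ43, in place of 6.97, and 6.37 points for TRAJ50, in place of 7.61.

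Counting each distinct chain of a library (same V, J and CDR3 nucleotides) a single time gave another picture. TRAJ43 made up 6 of 281 and 12 of 345 distinct TRA chains in the KO day 14 libraries and 11 of 526 and 11 of 331 in the CON day 14 libraries, and 6 of 318, 8 of 301, 8 of 352 and 8 of 439 in the KO and then the CON libraries of day 5. Its mean share of distinct chains was 2.76% ± 0.746 at day 14 and 2.16% ± 0.387 at day 5, with overlapping ranges. For TRAJ50 the order of the days turned round, with 1.02% ± 0.115 at day 14 and 1.51% ± 0.594 at day 5. These ranges overlapped too, at 0.906% to 1.16% at day 14 and 0.852% to 2.28% at day 5. The 4 day 14 libraries had 3, 4, 5 and 3 distinct TRAJ50 chains, and the 4 day 5 libraries had 5, 4, 3 and 10.

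**Figure D1:**
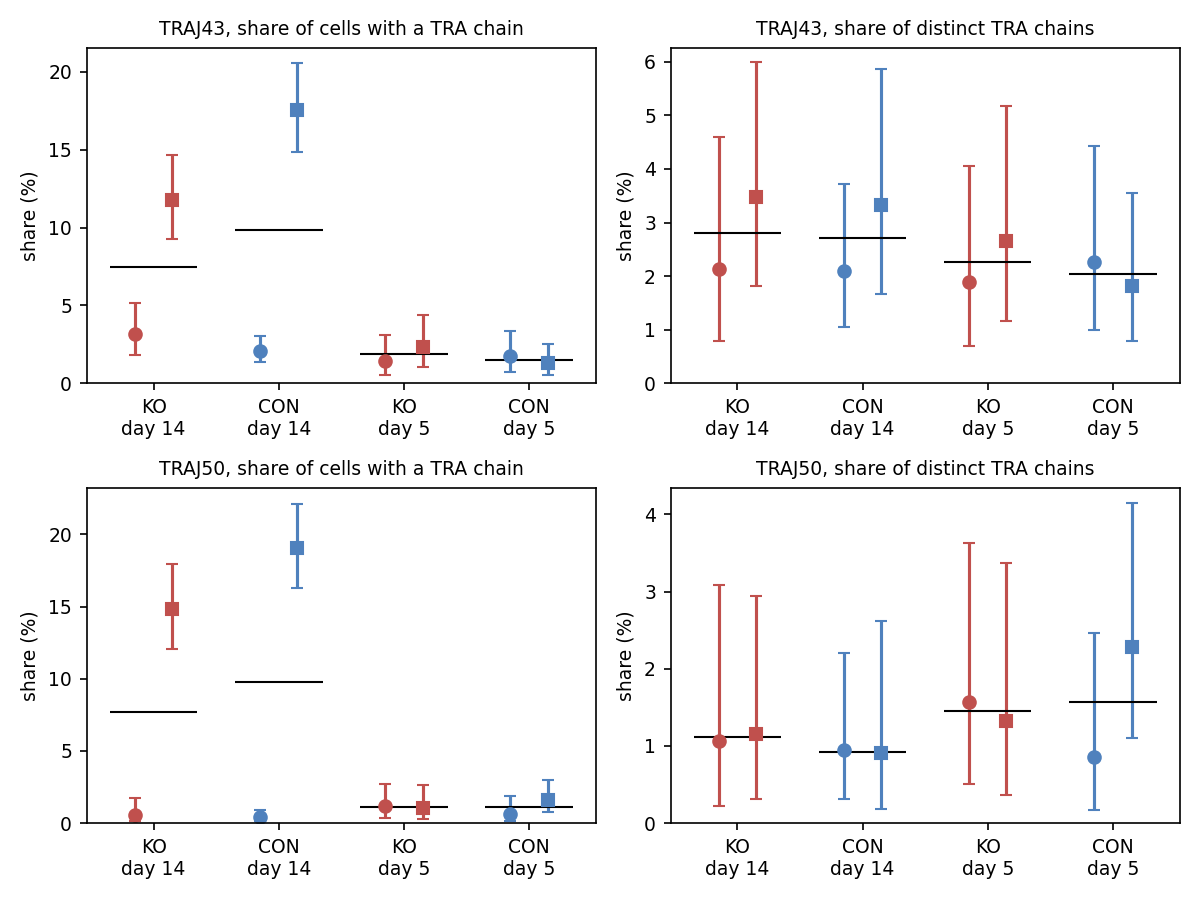
Share of cells with a TRA chain (left) and share of distinct TRA chains (right) with TRAJ43 (top) and TRAJ50 (bottom), in percent, per library; circles are replicate 1, squares replicate 2, red KO, blue CON, bars exact 95% intervals and black lines group means. The replicate 2 libraries of day 14 reach 11.8% and 17.6% of cells for TRAJ43 and 14.8% and 19.1% for TRAJ50, while the intervals on distinct chains overlap across all 8 libraries.

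The difference between the countings lay in a few large clones. Of 70 distinct TRAJ43 chains 56 were seen in 1 cell each, and 5 chains in 5 or more cells held 192 of the 269 cells. Of 37 distinct TRAJ50 chains 34 were seen in 1 cell each, and 2 chains in 5 or more cells held 219 of the 255 cells. The most frequent TRAJ43 chain held 10 of 16 and 54 of 69 TRAJ43 cells in the KO day 14 libraries and 12 of 26 and 110 of 127 in the CON day 14 libraries. For TRAJ50 the most frequent chain held 83 of 87 cells in KO replicate 2 and 136 of 138 in CON replicate 2, and 1 cell in each of the replicate 1 libraries. At day 5 no TRAJ43 chain was in more than 2 cells, a number reached by TRAV9-4 with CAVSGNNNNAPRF and TRBV12-1 in KO replicate 2, and no TRAJ50 chain was in more than 1. Leaving out the most frequent chain of each library, the mean share of cells was 1.99% at day 14 and 1.41% at day 5 for TRAJ43. For TRAJ50 it was 0.465% at day 14 and 0.906% at day 5. These denominators still hold the iNKT-type cells, which were more numerous at day 5, so the days are not on an equal footing.

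**Figure D2:**
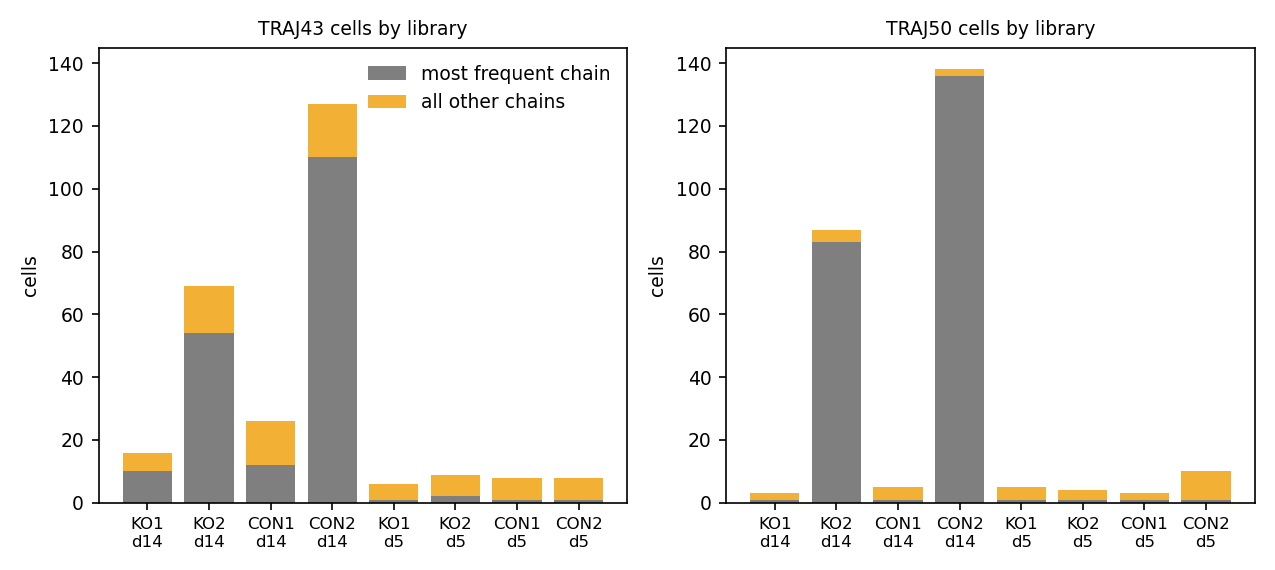
Number of cells with TRAJ43 (left) and TRAJ50 (right) in each library, split into the cells of that library's most frequent chain (grey) and all other chains (yellow); KO1 to CON2 are the 2 replicates of each genotype and d14 and d5 the days. Grey makes up 54 of 69 and 110 of 127 TRAJ43 cells and 83 of 87 and 136 of 138 TRAJ50 cells in the replicate 2 libraries of day 14.

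The 154 cells with both segments came from 2 libraries only, 53 from KO day 14 replicate 2 and 101 from CON day 14 replicate 2. In each of these libraries they all shared 1 beta chain, that of the clones shown above, and none was a possible doublet, which would show at least 2 productive TRB chains or at least 3 TRA chains. In the other 6 libraries 0 of 3626 TRA cells had both. Were cells independent draws, this would allow a share of up to 0.0827% (3 divided by the number of cells). Cells of a clone are not independent, so this limit is too tight.

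The KO clone, defined by its beta chain, had 86 cells, 11.9% of the 725 TRB cells of its library, and was the largest there. TRAJ43 and TRAJ50 were detected together in 53 of its cells, TRAJ50 alone in 29, TRAJ43 alone in 1 and no TRA chain in 3. The CON clone had 150 cells, 18.8% of 798 TRB cells, and was also the largest of its library. Both chains were detected in 101 of its cells, TRAJ50 alone in 35, TRAJ43 alone in 9 and no TRA chain in 5. No cell of either clone had a TRA chain with another J segment. These clones held 78.3% of the TRAJ43 and 94.3% of the TRAJ50 cells of the KO library, and 86.6% of the TRAJ43 and 98.6% of the TRAJ50 cells of the CON library.

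Within the clones TRAJ50 was the better detected alpha chain. In cells with both chains the median was 4 UMIs for TRAJ43 and 7 for TRAJ50 in each clone. TRAJ50 had more UMIs than TRAJ43 in 42 of the 53 KO cells and fewer in 7, and more in 69 of the 101 CON cells and fewer in 19. Cells of the KO clone with TRAJ43 detected had a median of 26 TRB UMIs, and those without it 19.5. In the CON clone these medians were 29 with TRAJ43 and 17 without it. The median of TRAJ50 UMIs was 7 in KO clone cells with TRAJ43 and 6 in those without it. It was 7 and 4 in the CON clone. Cells with TRAJ43 detected thus had higher medians of the other chains, by little for TRAJ50 in the KO clone. Whether the remaining cells lack TRAJ43 transcripts was not tested.

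**Figure D3:**
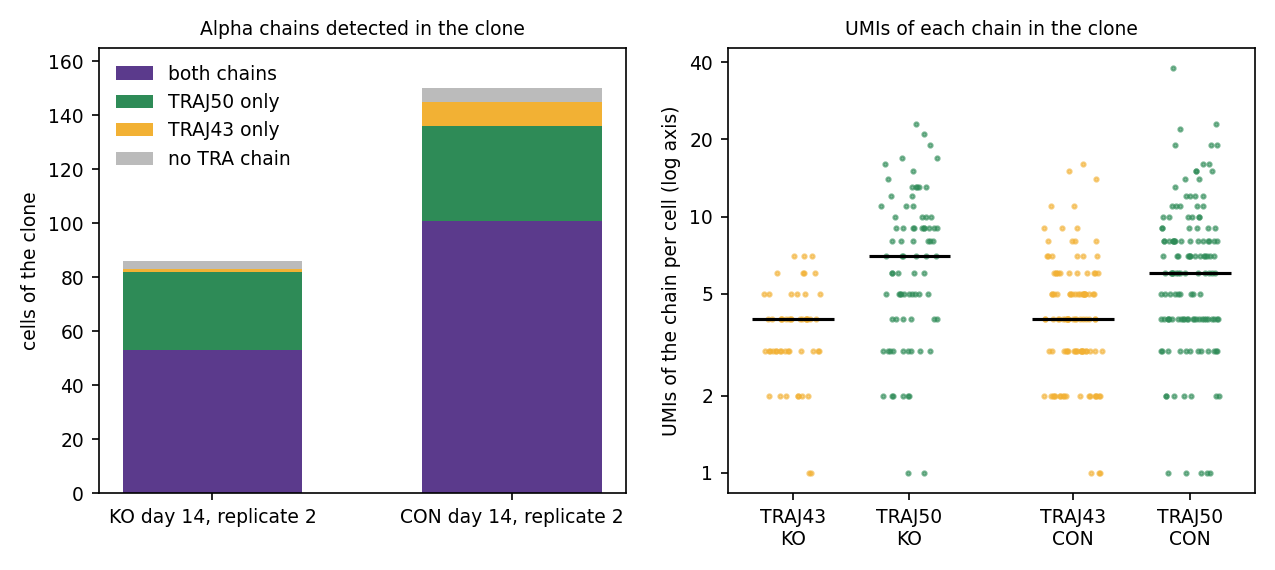
Left, cells of the largest clone of the KO and of the CON day 14 replicate 2 library, split by which alpha chains were detected; right, UMIs per cell (log axis) of the TRAJ43 and the TRAJ50 chain in each clone, with 1 point a cell, points spread sideways for visibility and medians as black lines. Both chains were detected in 53 of 86 KO and 101 of 150 CON cells, and TRAJ50 medians lie above TRAJ43 medians.

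The 2 clones had the same protein in the beta and in the TRAJ43 chain, but different beta nucleotides and different TRAJ50 chains. Counting from 1 at the 5′ end of CDR3, the CON beta differs from the KO beta by A19C, in codon 7, which encodes arginine in both. The CON single cell differs from the KO clone by A19C, A25T and G26C in the beta and by G12T in the alpha chain. All these changes leave the amino acids as they were. The TRAJ43 nucleotides of the KO and CON clones were identical over all 36 bases of CDR3.

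Each version of the beta chain was confined to its own library. The KO nucleotides were found in 0 barcodes of the CON library, called cells or not, and the CON nucleotides in 0 barcodes of the KO library. Were called cells with a TRB chain independent draws, this would allow a share of up to 0.414% in the KO and 0.376% in the CON library. These limits are too tight for the same reason as above. The TRAJ50 chain of either clone was likewise found in no barcode of the other library. Neither beta nor any of the 3 alpha chains was found in a barcode of the other 6 libraries. The further CON cell had 8 UMIs for its alpha chain, 70 for its beta chain and no other TRA chain. Over the 8 libraries the beta protein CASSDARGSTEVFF was read in 237 cells, all in these 2 libraries.

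Among the V partners of TRAJ43, TRAV6-6 was the most frequent. It was joined to 10 of 70 distinct TRAJ43 chains (14.3%), against 150 of 2723 (5.51%) distinct chains of other J segments, iNKT-type chains left out. Of these 10, 9 were among the 40 TRAJ43 chains of day 14 and 1 among the 30 of day 5. TRAV6-6 made up 5.35% of the other chains at day 14 and 5.68% at day 5. The 10 include the chains of the KO clone, the CON clone and the single CON cell, which encode the same protein. They also include 2 nucleotide versions of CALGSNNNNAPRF, described below. TRAV12-2 and TRAV5-4 were each joined to 6, TRAV9-1 to 5 and TRAV6-5 to 4. Of the 5, TRAV6-5 was seen at day 5 only, and TRAV9-1 at day 14 only. Among other chains TRAV6-5 made up 2.28% at day 14 and 1.29% at day 5, and TRAV9-1 3.78% and 2.27%. Among the partners of TRAJ50, TRAV6-7 was joined to 5 of 37 distinct chains (13.5%, against 4.33% of other chains), TRAV5-4 to 4, TRAV19 and TRAV7-5 to 3 each and TRAV13-3 to 2, a place it shares with 4 other segments. TRAV5-4 is thus among the leading partners of both J segments. With so few chains these shares are counts, not tests, and TRAV6-6 was seen with TRAJ50 in 1 chain.

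**Figure D4:**
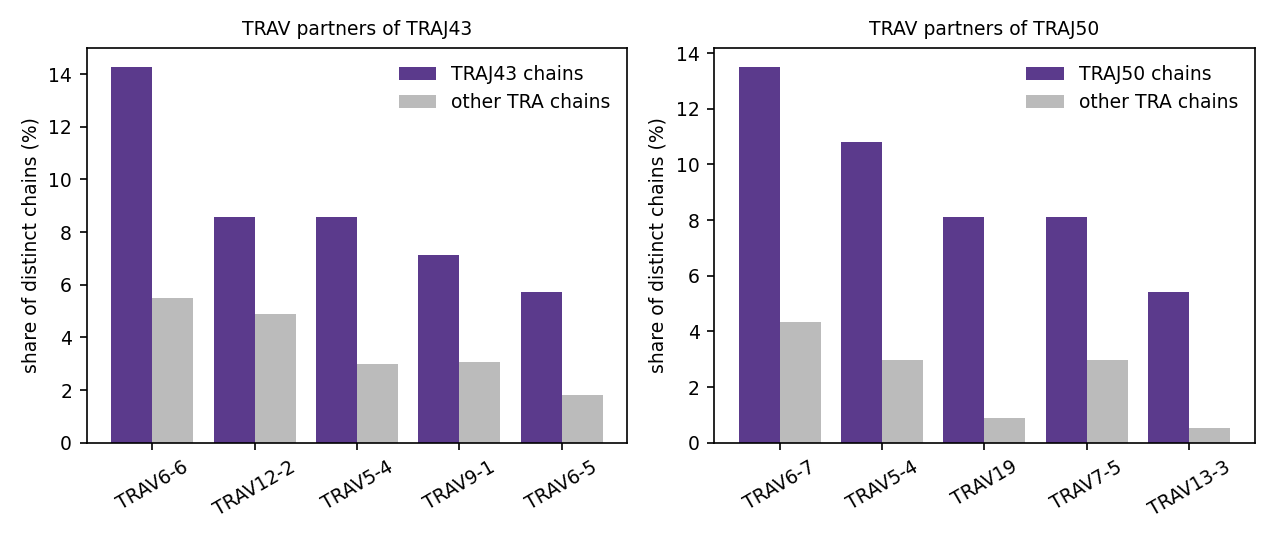
Share of distinct chains, in percent, that carry 5 leading TRAV partners of TRAJ43 (left, of 70 chains) and TRAJ50 (right, of 37 chains; TRAV13-3 is tied with 4 segments not drawn) beside the share among 2723 other TRA chains (grey). The tallest bars are TRAV6-6 at 14.3% for TRAJ43 and TRAV6-7 at 13.5% for TRAJ50; partners were ranked on the coloured bars.

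V segments close to the J cluster (TRAV17, TRAV18, TRAV19 and TRAV21) take part in early joins. They were joined to 5 of 37 distinct TRAJ50 chains, 3 of 70 TRAJ43 chains and 67 of 2723 others. In the averages over libraries, the comparison chains leave out iNKT-type chains but keep those of the other member, unlike the 2723. Averaged over libraries the share was 14.6% for TRAJ50 chains and 2.52% for these comparison chains. The difference of 12.1 percentage points was positive in 4 of 8 libraries. It was 4.82 points without CON day 5 replicate 1, where 66.7% of only 3 TRAJ50 chains had such a V segment. For TRAJ43 it was 4.17% against 2.61%, a difference of 1.55 points that was positive in 3 of 8, and of 0.531 points without CON day 5 replicate 2. With TRAV16 added to these V segments the differences were 9.53 points for TRAJ50 and 0.349 for TRAJ43. Neither passed a two-sided exact sign-flip permutation test over the 8 libraries (p = 0.156 for TRAJ50 and 0.422 for TRAJ43). Adjusted over the 4 tests of V partners and UMIs the values were 0.313 for TRAJ50 and 0.422 for TRAJ43, where the smallest raw p that 8 libraries allow is 0.00781.

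The beta partners of TRAJ43 were led by TRBV3 with 13 of 70 distinct pairs (18.6%, against 12.1% of 2692 other pairs), TRBV13-1 with 11 (15.7%, against 5.42%) and TRBV1 with 7 (10% against 7.06%). TRAJ50 was paired with TRBV13-1 in 6 of 36 pairs (16.7%), TRBV3 in 4 and TRBV1 in 3, as many as 4 other TRBV names. Each pair of chains counts a single time per library in these shares, whatever the size of its clone, and they were not tested. The TRBV13-1 pairs of both segments include the KO and the CON clone shown above, and those of TRAJ43 also the single CON cell.

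TRAV6-6 joined to TRAJ43 recurred with a second kind of beta chain. Of its 10 distinct pairs 3 had TRBV1 (chr6:40891296-40891885) joined to TRBJ2-7, in 10 cells of KO day 14 replicate 1, 1 cell of CON day 14 replicate 1 and 1 cell of CON day 14 replicate 2. Among pairs of other alpha chains 32 of 2692 (1.19%) had TRBV1 and TRBJ2-7. These pairs were noticed after the values were seen. The beta CDR3s are shown because they are alike across libraries, with capitals at the differing positions.
KO day 14 replicate 1: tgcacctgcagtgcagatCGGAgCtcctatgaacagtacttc
CON day 14 replicate 1: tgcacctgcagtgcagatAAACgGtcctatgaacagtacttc
CON day 14 replicate 2: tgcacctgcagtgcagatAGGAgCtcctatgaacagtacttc

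The KO chain and that of CON replicate 2 differ by C19A and both read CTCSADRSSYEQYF, while CON replicate 1 reads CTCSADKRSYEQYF. The alpha CDR3s that go with them read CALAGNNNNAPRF in the KO cells and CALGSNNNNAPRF in both CON cells. They differ at 5 neighbouring bases in the middle of CDR3, again in capitals.
KO day 14 replicate 1: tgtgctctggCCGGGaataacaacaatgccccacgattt
CON day 14 replicate 1: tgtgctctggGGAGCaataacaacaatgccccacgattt
CON day 14 replicate 2: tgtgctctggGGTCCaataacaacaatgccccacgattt

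The beta protein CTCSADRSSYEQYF was found in 17 cells of 3 day 14 libraries, with 4 nucleotide versions. A TRA chain was read in 12 of these cells, and in 11 of the 12 it was TRAV6-6 joined to TRAJ43. The exception was a KO cell with TRAV6-7 joined to TRAJ31. Of the 11, 10 were cells of the same KO clone, with 1 beta and 1 alpha sequence, and are not independent cases. In KO day 14 replicate 2 the beta protein was found in 2 cells with no TRA chain read.

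Sharing of chains by amino acids between day 14 libraries was counted over all J segments for comparison. Of 37 TRAJ43 chains 2 (5.41%) were found in more than 1 day 14 library, the TRAV6-6 chains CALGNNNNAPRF and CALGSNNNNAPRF. Of 15 TRAJ50 chains 0 were, which allows a share of up to 20%. Of 1349 chains with other J segments 31 (2.30%) were. As a paired receptor, 1 of 38 TRAJ43 pairs and 13 of 1367 other pairs (0.951%) were found in more than 1 day 14 library.

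The other 2 TRAJ43 chains in 5 or more cells were from the CON day 14 libraries. In replicate 1 TRAV16 (deposited as TRAV16N) with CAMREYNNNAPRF was found in 12 cells with TRBV3 and TRBJ2-7 (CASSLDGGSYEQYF), and in replicate 2 TRAV9-1 (TRAV9D-1) with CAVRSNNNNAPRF in 6 cells with TRBV26 and TRBJ2-2. Neither had a further TRA chain in any of its cells. CDR3 was 12.6 ± 1.11 residues long over the 70 TRAJ43 chains and 14.8 ± 1.38 over the 37 TRAJ50 chains, against 13.7 ± 1.45 over the chains of other J segments (SD over distinct chains, which are not replicates).

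UMIs per chain were compared with those of other TRA chains of the same library, each distinct chain counted a single time. The geometric mean for TRAJ43 was 4.14 and 3.18 UMIs in the KO day 14 libraries, 3.38 and 4.20 in the CON day 14 libraries, 3.02 and 5.06 in the KO day 5 libraries and 1.96 and 2.87 in the CON day 5 libraries. It was below that of the other chains in 7 of 8 libraries, KO day 5 replicate 2 being the exception. The difference of 0.28 on the log2 scale (0.826 times the level of other chains) had p = 0.0547 by the two-sided exact sign-flip permutation test and 0.219 after adjustment over the 4 tests. TRAJ50 chains were also below the others in 7 of 8 libraries, by 0.18 on the log2 scale (exact permutation p = 0.289, adjusted 0.385). Their exception was KO day 14 replicate 2, where 4 chains had a geometric mean of 6.47 UMIs and other chains 3.56. Neither difference had an adjusted p under 0.05, which does not show that the levels were alike.

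KO and CON were compared within each day, a contrast that did not choose the members. At day 14 the mean share of TRA cells with TRAJ43 was 7.48% ± 6.07 in KO and 9.83% ± 10.9 in CON libraries, and with TRAJ50 7.72% ± 10.1 in KO and 9.75% ± 13.2 in CON (SD, n = 2 each). The 2 replicates of a genotype lay much farther apart than the genotypes did. Averaged over the days, KO minus CON was -0.999 percentage points for TRAJ43 (two-sided exact permutation within day, p = 0.944) and -1.03 points for TRAJ50 (p = 0.722, adjusted over both segments 0.944 for each). With only the TRA chain of most UMIs of each cell it was -0.0949 points for TRAJ43 and -0.552 for TRAJ50. The 36 relabelings allow no p below 0.0556. Each sign turned without KO day 14 replicate 1 (1.15 points for TRAJ43 and 2.54 for TRAJ50) and without CON day 14 replicate 2 (2.87 and 3.64 points).

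In a fit over all 103 segments with 40 or more cells (edgeR's quasi-likelihood test, Benjamini-Hochberg adjusted p under 0.05), neither member was called in KO against CON at day 14, at day 5, over both days or in the change of the KO effect between the days. The share of all tested segments called was 0% in each of the 4. Unadjusted p under 0.05 was reached by 11 segments at day 14, 0 at day 5, 5 over both days and 3 in the interaction. Among the 11 were TRAV13-3 (log2 fold change 4.62 ± 1.59, SE) and TRAV7-5 (-2.59 ± 0.96). These are the V segments of the TRAJ50 chains of the KO and the CON clone, so their counts include the cells of those clones. DESeq2 also made 0 calls, with 9, 1, 3 and 1 segments at an unadjusted p under 0.05. Without KO day 14 replicate 2 edgeR called 9 segments at day 14, and without the KO or without the CON replicate 1 library it called 1, with neither member among them. Leaving out CON day 14 replicate 1 also gave 1 call over both days. The log2 fold change of TRAJ43 was -0.37 ± 0.91 at day 14 and 0.31 ± 1.09 at day 5 (SE, edgeR adjusted p = 0.854 and 0.976). For TRAJ50 it was -0.31 ± 1.46 at day 14 and -0.07 ± 1.88 at day 5 (edgeR adjusted p = 0.929 and 0.976). With errors of this size, a p above the threshold does not show that KO and CON were alike. Without CON day 14 replicate 2 the day 14 values were 1.83 for TRAJ43 and 4.20 for TRAJ50, and without KO day 14 replicate 2 they were -1.60 and -3.96.

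**Figure D5:**
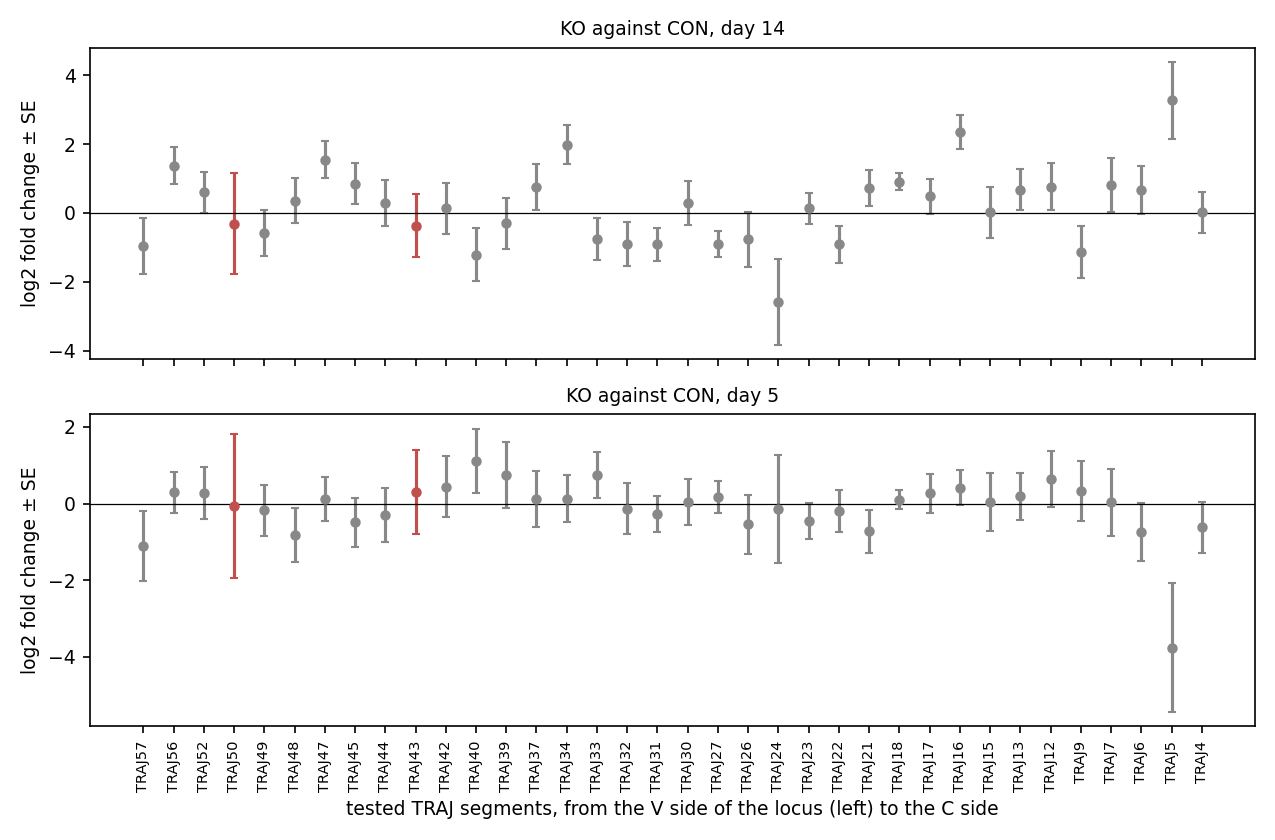
Log2 fold change of cell share, KO against CON, for each tested TRAJ segment at day 14 (top) and day 5 (bottom). Bars are standard errors computed from edgeR's F statistic, and segments are ordered from the V side of the locus. TRAJ50 and TRAJ43 are red. Both lie near 0 with long bars: -0.31 ± 1.46 and -0.37 ± 0.91 at day 14.

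The neighbours on the V side of the J cluster, TRAJ40 to TRAJ57 without the members, gave the setting. Of 11 seen, 10 had enough cells to be tested, and 0 rose and 0 fell in any of the 4 contrasts, as for all 103 segments. At day 14 their median log2 fold change was 0.32, against 0.11 over all segments, and the values farthest from 0 were 1.55 ± 0.54 for TRAJ47 and 1.37 ± 0.53 for TRAJ56. An unadjusted p under 0.05 was reached by 2 of the 10 at day 14 and by 0 in the other contrasts, and the interaction value farthest from 0 was -2.33 ± 1.14 for TRAJ40. Over both days TRAJ57 had -1.03 ± 0.61 and TRAJ56 0.83 ± 0.38, the 2 farthest from 0.

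Over the 8 libraries the tested TRAJ segment whose log2 share was most like that of TRAJ43 was TRAJ50 (Pearson's r = 0.869), then TRAJ37 (0.827) and TRAJ27 (0.658), of 35 compared. For TRAJ50 they were TRAJ37 (0.884), TRAJ43 and TRAJ6 (0.532). The members share 154 cells, those that hold both. TRAJ37 was in 2.19% and 5.80% of TRA cells in the KO day 14 libraries and 1.38% and 3.46% in the CON day 14 libraries. At day 5 it was in 1.66% and 2.32% in KO and 1.51% and 2.11% in CON libraries. The points of these correlations are 8 libraries, of which 2 hold the large clones with the members. No cell of those clones had a TRA chain with another J segment. The cells counted for TRAJ37, TRAJ27 and TRAJ6 are therefore other cells. No p is given.

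Every productive TRA chain of a cell was counted, so a member can rank behind another by UMIs. Chains with equal UMIs were ranked by contig name, so a lower rank does not always mean fewer UMIs. TRAJ43 and TRAJ50 had equal UMIs in 4 cells of the KO clone and 13 of the CON clone. In the 2 libraries of the large clones TRAJ43 ranked behind another TRA chain in 118 of 196 cells (60.2%) and TRAJ50 in 36 of 225 (16%). In the other 6 libraries TRAJ43 did so in 7 of 73 cells (9.59%) and TRAJ50 in 3 of 30 (10%), against 8.35% of the chains of other J segments there.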

How the data were processed

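Receptor contig tables of 8 libraries were used. Per the labels' protocols, tumours were dissociated and cells captured in droplets for 5′ libraries. The submitters' processing notes name build GRCm38 and the tools Seurat 4.0.0, R 4.1.2, CASAVA 1.8 and Cell Ranger 3.1.0, without a role for each. Per the file headers, the deposited tables give raw counts, of UMIs and of reads, for each contig. Reads were not used.

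Cells were barcodes the authors called cells, and chains high-confidence productive contigs. The D and N copies of TRAV names were merged, 88 names into 47. Cells per segment (40 or more over the libraries) were tested with edgeR 4.0.16 in R 4.3.3, with TRA or TRB cells of each library as offset, in 1 fit with 4 group means, and DESeq2 1.42.0 was an alternative. Standard errors of the edgeR values were computed as the absolute log2 fold change divided by the square root of the F statistic. They are unstable for changes very close to 0, as for TRAJ33, with 0.0027 over both days and 0.60 at day 5. Single values were tested with exact permutations (Python 3.11.15, scipy 1.17.1). The edgeR and permutation scripts were tested on simulated data without large clones, so that test does not cover libraries in which a clone holds most cells of a segment. Positions are from RefSeq genes of GRCm38.

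The members, lists and tests were chosen with earlier results of these data known. The text names each library's most frequent member chain where it was in more than 1 cell, chains in 5 or more cells, chains shared at day 14, the 5 TRAV and 3 TRBV partners with most chains (ties in the order of their names), the 3 most similar segments and the 2 V-side neighbours farthest from 0. Of 5887 barcodes 21 occurred in more than 1 library, 3 of them with a member chain, and 0 with the same alpha chain in both. MAIT-type and gamma-delta markers were not used.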

Additional observations from a re-analysis of the deposited data

Results flagged for a closer look

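Member chains also occurred in data outside the shares and tests, which use called cells and productive contigs. Productive TRAJ43 contigs were found in 24 barcodes that were not called cells, 17 of them with the most frequent chain of their library. Productive TRAJ50 contigs were found in 48 such barcodes, 39 of them with the most frequent chain. By library these TRAJ50 barcodes numbered 11 in KO and 31 in CON day 14 replicate 2, and 0 to 3 in each other library.

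Within called cells, non-productive high-confidence TRAJ43 contigs were found in 39 cells and TRAJ50 contigs in 23. No group has more than 2 libraries, so no library was tested for standing apart from its group.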

How the results depend on the processing

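No processing alternative brought either member past the threshold in any contrast. The log2 fold changes that turned sign under another counting or normalization were smaller than their standard errors.

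For TRAJ50, KO against CON at day 5 turned to 0.019 (log2) with TMM factors, and 0.17 with chains of 2 or more UMIs. Counting each distinct chain a single time gave 0.16 for TRAJ43 and 0.25 for TRAJ50 at day 14, 0.16 and 0.040 over both days, and 0.0029 and 0.42 for the interaction. It also gave 0.162 (TRAJ43) and 0.0353 (TRAJ50) points for KO minus CON and -0.487 points for TRAJ50 at day 14 minus day 5, an alternative chosen after seeing the data. Over both days TRAJ43 became 0.14 with the top-UMI chain only, 0.20 with chains of 2 or more UMIs and 0.0071 without iNKT-type cells. The TRAJ50 interaction became 0.12 without possible doublets.

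The labels do not say whether libraries with the same replicate number were processed together. The same-number correlation of deviations, 0.0444 at day 14 and -0.0125 at day 5 over 103 segments, did not show pairing, although both replicate 2 libraries of day 14 hold the same TRAJ43 chain. The replicate block left 0 calls. It gave 0.43 for TRAJ50 at day 5, and 0.010 for TRAJ43 and 0.17 for TRAJ50 over both days.

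Leaving out each library in turn, log2 fold changes ranged, for TRAJ43, from -0.081 to 0.62 at day 5, -1.60 to 1.83 at day 14, -0.65 to 1.07 over both days and -1.91 to 1.52 for the interaction. For TRAJ50 they ranged from -0.54 to 0.76, -3.96 to 4.20, -2.02 to 2.06 and -3.89 to 4.27. KO minus CON shares ranged from -4.86 to 2.87 points for TRAJ43 and -5.70 to 3.64 for TRAJ50. Day 14 minus day 5 ranged from 3.996 to 9.15 points for TRAJ43 and 4.16 to 10.4 for TRAJ50. UMI differences (log2) ranged from -0.36 to -0.19 for TRAJ43 and -0.33 to -0.12 for TRAJ50, and J-proximal differences from 0.531 to 2.32 and 4.82 to 14.3 points. Segments called ranged from 0 to 9 at day 14 (9 without KO replicate 2) and 0 to 1 over both days, and were 0 otherwise. A lone library of a group was assumed to vary like the other groups.

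Depth limits these results: 3 to 12 distinct chains of each segment per library and a median of 3 to 5 UMIs per TRA chain.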
